A study of Homo sapiens with 4 samples.

Results

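The genes of plasminogen activation and of the tissue factor pathway were examined in 4 RNA sequencing libraries from human breast cancer cells. The set is 9 genes, taken by name from a deposited table of 20329 genes after removal of repeated entries: the activators PLAU and PLAT, the receptor PLAUR, the serpins SERPINE2, SERPINB2, SERPINB6 and SERPINB8, and the coagulation genes F3 and TFPI2. All 9 were listed, and all 9 passed the filter used for testing, a mean of at least 1 FPKM (fragments mapped to a gene, scaled to its length and to the library's total) over the 4 libraries, as did 13928 genes in all. Both cell lines used, BM1 (1833) and LM2 (4175), descend from MDA-MB-231, a human triple-negative breast cancer line, and are labelled as coming from a metastasis to bone (BM1) or lung (LM2). For each line there was 1 control library, whose cells expressed a non-specific shRNA, and 1 knockdown library, whose cells expressed an shRNA against hnRNPM, a nuclear protein that binds RNA. All cells, controls included, had been infected with a lentiviral vector and expressed their shRNA stably. The labels do not say whether infected cells were kept as pools or as single clones. The series concerns splicing controlled by hnRNPM together with ESRP1 in EMT, the shift of epithelial cells to a mesenchymal state, while the deposited table holds levels of whole genes. In bulk RNA a lower level in each cell and fewer expressing cells cannot be told apart.

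Plasmin, the protease formed from plasminogen, degrades fibrin and matrix proteins and activates some matrix metalloproteinases. Urokinase, the product of PLAU, forms plasmin at the cell surface when bound to its receptor PLAUR, and the tissue activator PLAT does so mainly on fibrin. Serpins are inhibitors that trap a protease in a covalent complex. Tissue factor, the product of F3, binds factor VII and starts coagulation, and it is known in breast cancer cells as a surface protein of aggressive lines.

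The targeted gene checked the labels: HNRNPM fell from 171 to 28.4 FPKM in BM1, and for LM2 from 132 to 20.3 (limma adjusted p = 0.00318). That call was lost in the same settings as the F3 call, named below, while the average change of HNRNPM on log2 stayed between -2.83 and -2.36. The inferred depth, in fragments per library, let the values of the 9 genes stand for about 55 fragments at the least, for SERPINB2 in the LM2 knockdown, and 25190 at the most, for PLAU in the LM2 control. Genes of the mitochondrial genome took 9.31% and 8.80% of the FPKM sum in the BM1 and LM2 controls, and 12.8% and 11.8% in the knockdowns. Of the receptors that define triple-negative cells, ESR1 and PGR have no entry among the genes analysed, and ERBB2 was between 13.5 and 21.9 FPKM. VIM, CD44, EGFR, KRT8 and KRT18 were each above 30 FPKM in every library. Of 12 markers of leukocytes, endothelium, fibroblasts and fat cells, 6 have an entry, and their summed level was 26.9 and 39.6 FPKM in the BM1 and LM2 controls and 19.4 and 81.0 FPKM in the knockdowns. The sum was mostly CD68, at 2.04 to 23.5 FPKM, and COL1A1, at 1.94 to 74.2 FPKM. PTPRC, CD3E, PECAM1, CDH5, DCN and ADIPOQ have no entry among the genes analysed.

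The 9 genes differed widely in level. By the mean over the 4 libraries F3 was highest at 224 FPKM, followed by PLAU at 142, PLAT at 79.2, PLAUR at 53.4, SERPINB6 at 45.2, SERPINE2 at 25.3, TFPI2 at 10.3, SERPINB8 at 6.60 and SERPINB2 at 1.67 FPKM. With 1 library per line and treatment there is no replicate spread for a single group. The ranges over the 4 libraries overlapped for 7 of the 8 neighbouring pairs in this order, and only SERPINB2 lay wholly below its neighbour. The order changed between libraries: PLAT led in the BM1 control, PLAU in the LM2 control, and F3 in both knockdown libraries.

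**Figure D1:**
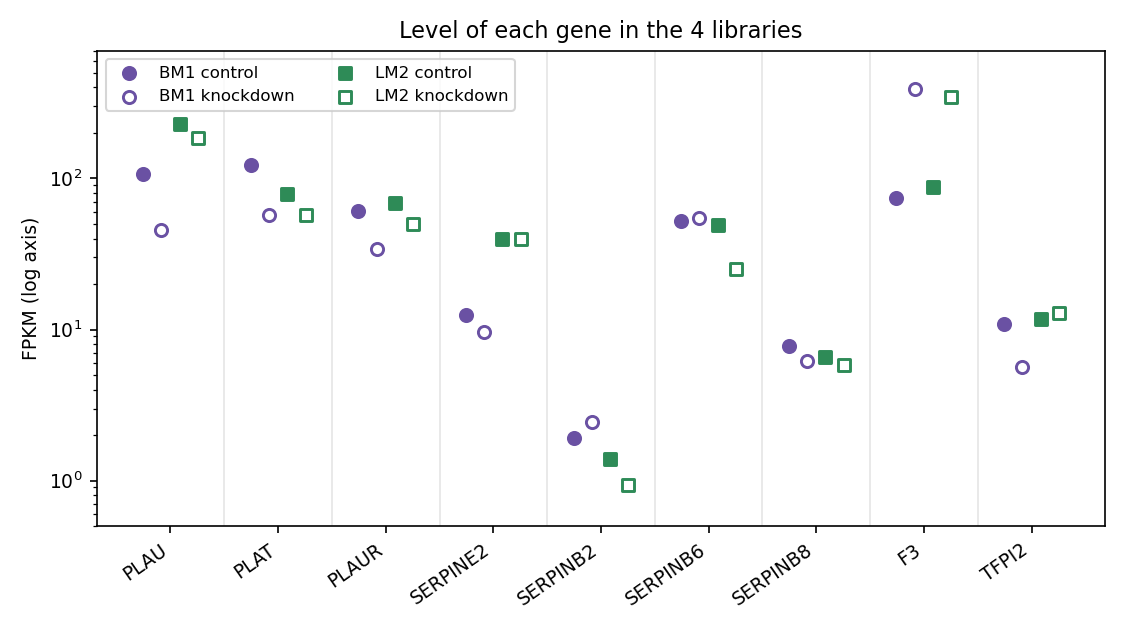
Level of each of the 9 genes in the 4 libraries, in FPKM on a log axis, with 1 point per library, circles for BM1, squares for LM2, filled symbols for controls and open symbols for hnRNPM knockdown. F3 is at 347 and 388 FPKM in the knockdown libraries and at 74.4 and 87.4 in the controls, and SERPINE2 and PLAU are higher in both LM2 libraries than in either BM1 library.

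The first comparison asked how the genes differed between hnRNPM knockdown and control cells. F3 rose, and it was the only member called. PLAU, PLAT and PLAUR were lower in the knockdown library of both lines, but none of them passed the test, and the 4 serpins and TFPI2 did not pass it either. The test was limma on log2(FPKM + 1) with terms for line and treatment, a scale that understates the change of low genes, with Benjamini-Hochberg adjustment over 13928 genes at a threshold of 0.05. It called 5.47% of all tested genes, 2.71% as higher and 2.76% as lower, and among the 9 members it called 1 as higher and 0 as lower. At an unadjusted p under 0.05 there were 4 members and 3465 genes. On average over the lines 8 of the 9 members were lower in the knockdown, with a median of -0.36, against 7071 of 13928 genes and a median of -0.01 over all tested genes. The direction was the same in both lines for 5 of the 9 members and for 69.1% of all tested genes. These counts describe the 9 genes and were not tested as a group.

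PLAU (ENSG00000122861.15, chromosome 10, 75668935 to 75677255, plus strand, build GRCh37) measured 108 FPKM without and 45.9 with the knockdown in BM1, and 228 FPKM without and 184 with it in LM2. With the knockdown PLAU stood at 42.6% of the BM1 control and 80.6% of the LM2 control, and both LM2 libraries lay above both BM1 libraries. The average change was -0.76 ± 0.29 (estimate and standard error on log2, limma adjusted p = 0.156). Without the BM1 knockdown library it was 0.23, in a fit without pairing by line that mixes line and treatment. The leukocyte marker CD68 was lower in the knockdown library of both lines too, from 23.5 to 4.46 FPKM in BM1, and for LM2 from 9.50 to 2.04, and its part in the levels of PLAU, PLAT and PLAUR was not tested.

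PLAU overlaps C10orf55 on the opposite strand, which was at 1.89 to 16.0 FPKM, and the sources used here do not say whether counting used the strand. PLAT, the tissue activator (ENSG00000104368.17, chromosome 8, 42032751 to 42065242, minus strand), went from 122 FPKM without to 57.6 with the knockdown in BM1, and for LM2 from 79.4 to 57.7. The knockdown libraries of the lines thus held nearly equal levels, below both controls. The average change of PLAT was -0.76 ± 0.27 (limma adjusted p = 0.131).

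PLAUR (ENSG00000011422.11, chromosome 19, 44150247 to 44174699, minus strand), the membrane-anchored receptor that localises urokinase, measured 61.1 FPKM without and 34.2 with the knockdown in BM1, and 68.5 FPKM without and 49.7 with it in LM2. Both knockdown libraries lay below both controls. With the knockdown PLAUR stood at 56.1% of the BM1 control and 72.6% of the LM2 control, an average change of -0.64 ± 0.26 (limma adjusted p = 0.173). Activators and receptor therefore shared a direction in both lines, with changes of -1.21, -1.07 and -0.82 in BM1 and of -0.31, -0.45 and -0.45 in LM2 for PLAU, PLAT and PLAUR.

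Among the serpins, SERPINE2 (ENSG00000135919.12, chromosome 2, 224839829 to 224904036, minus strand) encodes protease nexin-1, a secreted inhibitor of thrombin and of the plasminogen activators. It measured 12.5 FPKM without and 9.55 with the knockdown in BM1, and 39.5 FPKM without and 39.7 with it in LM2. The LM2 libraries were thus nearly equal, far above those of BM1 (average change -0.17 ± 0.26, limma adjusted p = 0.722). SERPINB2 (ENSG00000197632.8, chromosome 18, 61538926 to 61571124, plus strand) encodes PAI-2, a mostly intracellular inhibitor of urokinase. It measured 1.92 FPKM without and 2.45 with the knockdown in BM1, and 1.38 FPKM without and 0.939 with it in LM2, the lowest levels of the set. Taking the longest GENCODE transcript as its length, these values stand for about 130, 121, 124 and 55 fragments. The sign of the difference was opposite in the lines, and the average change of SERPINB2 was -0.03 ± 0.27 (limma adjusted p = 0.961).

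SERPINB6 (ENSG00000124570.17, chromosome 6, 2948393 to 2972399, minus strand) is an intracellular inhibitor of trypsin-like proteases. Its levels were 51.9 FPKM without and 54.6 with the knockdown in BM1, and 49.1 FPKM without and 25.3 with it in LM2, so that the LM2 knockdown library stood apart from the other 3. Its LM2 knockdown level was 51.5% of control, just short of the 2-fold rule used within a line, and its average change was -0.43 ± 0.30 (limma adjusted p = 0.415). SERPINB8 (ENSG00000166401.13, chromosome 18, 61637159 to 61672901, plus strand), an intracellular serpin that inhibits furin, varied least of the 9, from 5.80 FPKM in the LM2 knockdown to 7.79 in the BM1 control library, with an average change of -0.22 ± 0.25 (limma adjusted p = 0.629). It overlaps HMSD on the same strand, a gene at 4.21 and 1.35 FPKM in the BM1 and LM2 controls and at 0.429 and 0.217 FPKM in the knockdowns, so the split of fragments between them is uncertain.

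F3 (ENSG00000117525.13, chromosome 1, 94994781 to 95007356, minus strand) measured 74.4 FPKM without and 388 with the knockdown in BM1, and 87.4 FPKM without and 347 with it in LM2. Both knockdown libraries lay far above both controls, a 5.22-fold increase in BM1 and a 3.97-fold increase in LM2. The average change was 2.17 ± 0.26 (estimate and standard error on log2, limma adjusted p = 0.00653), the 32nd largest increase among 13928 genes. All 3 fibroblast markers with an entry were higher in the knockdown library of both lines as well. COL1A1 went from 1.94 to 11.1 FPKM in BM1, and for LM2 from 29.2 to 74.2, PDGFRB was at 0.699 to 1.37 FPKM in the controls and 2.93 to 3.24 FPKM in the knockdowns, and LUM was at most 1.61 FPKM. The part of these markers and of the mitochondrial share in the F3 result was not tested.

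The F3 call did not hold with a pseudocount of 0.1 (adjusted p = 0.0626), with quantile normalization (0.0691), without pairing by line (0.213), without the filter (0.220) or without any 1 library (0.237 to 0.613), while its change stayed between 2.06 and 2.29. The fit leaves 1 residual degree of freedom per gene, beside the spread that limma pools over all genes.

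TFPI2 (ENSG00000105825.11, chromosome 7, 93514709 to 93520303, minus strand) encodes a secreted Kunitz-type inhibitor of plasmin and of other serine proteases. It measured 10.9 FPKM without and 5.64 with the knockdown in BM1, and 11.8 FPKM without and 12.9 with it in LM2. Only the BM1 knockdown library stood apart, and the average change was -0.36 ± 0.30 (limma adjusted p = 0.494). TFPI2 overlaps GNGT1 on the opposite strand, which was at most 0.256 FPKM.

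**Figure D2:**
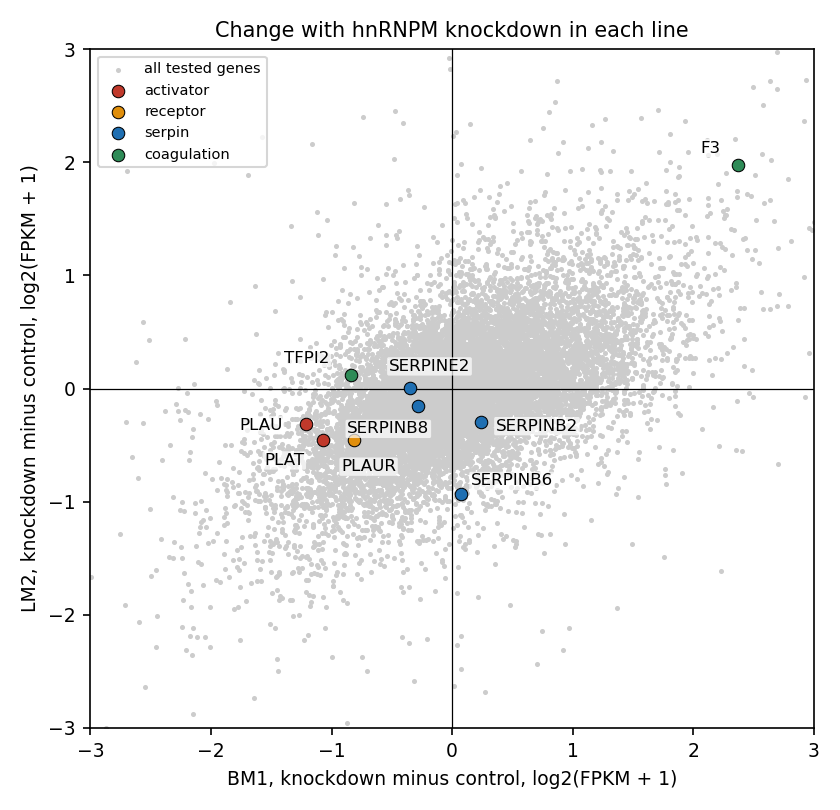
Change with hnRNPM knockdown on log2(FPKM + 1), BM1 on the horizontal axis and LM2 on the vertical axis, with 1 point per tested gene in grey and the 9 genes coloured by role; 51 genes lie outside the axes. F3 lies at 2.37 and 1.98, PLAU, PLAT and PLAUR lie below 0 on both axes, and SERPINB6 is near 0 in BM1 and at -0.93 in LM2.

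Within each line a change of at least 2-fold was used as a fixed rule, since 1 library per arm allows no test. In BM1 3 of the 9 members passed it, F3 as higher and PLAU and PLAT as lower, against 16.3% of all tested genes (10.1% higher, 6.20% lower). In LM2 only F3 passed it, against 8.06% of all tested genes (3.83% higher, 4.24% lower). PLAT passed the rule in BM1 at -1.07 on log2(FPKM + 1), and with quantile normalization, at -0.95, it did not. SERPINB6 missed the rule in LM2 at -0.93.

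The promoters of the genes were then searched for 4 short motifs, among them that of AP-1, a factor known to act on the F3 and PLAUR promoters. Sequences were taken from RefSeq (GRCh38.p14, 250 bases before to 50 after each annotated start), which matched 8 of the 9 genes with 13 windows. The AP-1 motif TGANTCA, which reads the same on both strands, was found in windows of 5 of the 8 genes (5 of 13 windows), and in 7.71% of 35116 promoter windows. The 7 matches are shown 5′ to 3′ on the strand of the gene, with the motif in capitals.
F3, match 223 bases upstream of the start, chr1:94541965-94541993: ggtggcgcggtTGAATCActggggtgagt
F3, match 210 bases upstream, chr1:94541952-94541980: aatcactggggTGAGTCAtcccttgcagg
PLAUR, match 186 bases upstream, chr19:43670338-43670366: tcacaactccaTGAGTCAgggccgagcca
TFPI2, match 87 bases upstream, chr7:93890823-93890851: gtccccgtgcaTGAATCAgccacccctca
SERPINB2, match 102 bases upstream, chr18:63887592-63887620: gagtaaaatgtTGAATCActcaaaggaca
SERPINB8, match 185 bases upstream, chr18:63969885-63969913: ggagtcaaacgTGAATCAacggtgaaaaa
SERPINB8, match 28 bases upstream, chr18:63970042-63970070: tcgaacggttcTGAGTCAtctgccggaag
The stretches of F3 overlap, and the same 7 letters with G at the free position occur in F3, PLAUR and SERPINB8. Of the 5 genes with a match only F3 was called with the knockdown, as higher. A link between these matches and the knockdown changes was not tested.

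TATAAA, searched on both strands, was found in 4 of the 8 genes (4 of 13 windows, against 11.5% of all windows), and CAGACA, a SMAD element searched on both strands, also in 4 of the 8 genes (6 of 13 windows, against 16.9%). A SMAD match of SERPINB6 lies where windows of that gene overlap and was counted in each, so these windows are not independent. The CRE-like TGACGTCA, which reads the same on both strands, was found in 0 of 13 windows and in 1.85% of all windows. In F3 and SERPINB2 the TATA match lies where such a box usually sits, starting 28 and 30 bases upstream, and in F3 it is on the opposite strand. These stretches are shown with the match in capitals.
F3, chr1:94541770-94541799: cgccgccggcccTTTATAgcgcgcggggca
SERPINB2, chr18:63887663-63887692: ggggcaaagctgTATAAAaccagtcattac
A match describes letters in these windows and not a bound site.

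**Figure D3:**
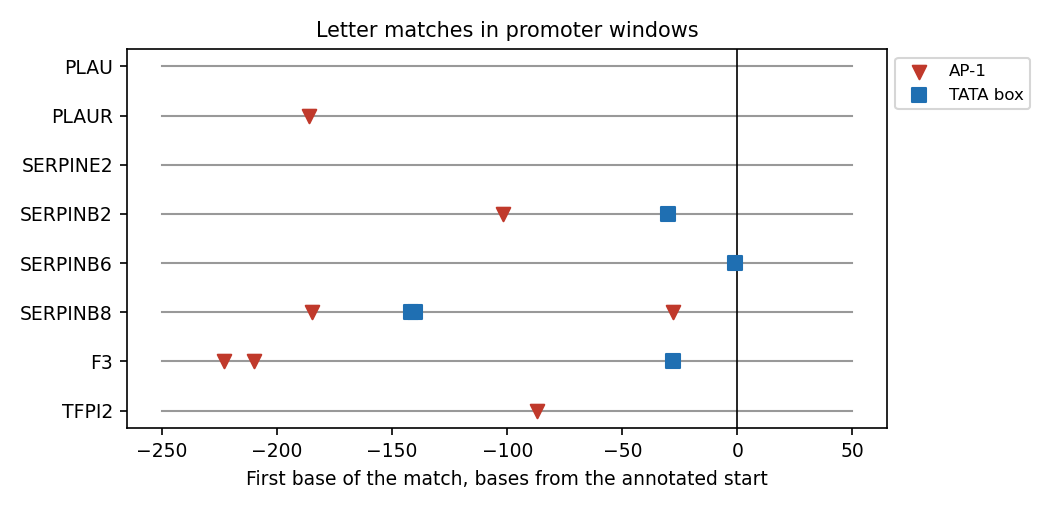
Position of AP-1 (triangles) and TATA box (squares) letter matches in promoter windows, in bases from the annotated start, with 1 line per gene that stands for all RefSeq windows of that gene. F3 and SERPINB8 each hold 2 AP-1 matches, PLAUR, SERPINB2 and TFPI2 hold 1 each, and PLAU, SERPINE2 and SERPINB6 hold none.

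The second comparison was between the lines. PLAU and SERPINE2 were higher in LM2 than in BM1 in both treatments, and they were the 2 members called. The same limma fit called 4.35% of all tested genes between the lines, 2.31% as higher and 2.04% as lower in LM2, and among the members it called 2 as higher and 0 as lower. At an unadjusted p under 0.05 there were 2 members and 3114 genes. The median over the 9 members was 0.03, against -0.01 over all tested genes, and 5 of the 9 members were on average higher in LM2.

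PLAU was 2.12-fold higher in LM2 than in BM1 among the controls and 4.01-fold higher among the knockdowns, an average difference of 1.53 ± 0.29 (log2, standard error, limma adjusted p = 0.0260). SERPINE2 was 3.17-fold higher among the controls and 4.16-fold higher among the knockdowns, an average difference of 1.77 ± 0.26 (limma adjusted p = 0.00852). For both genes the LM2 and BM1 libraries did not overlap. The same held for SERPINB2, SERPINB6 and TFPI2, which were not called, so lack of overlap did not set the called genes apart. The BM1 and LM2 controls were close for SERPINB6 (51.9 and 49.1 FPKM) and TFPI2 (10.9 and 11.8 FPKM). The share of all tested genes without overlap was not counted, so no result is read from it. An activator and an inhibitor of the same reaction were thus both higher in LM2. The calls for PLAU and SERPINE2 did not hold with a pseudocount of 0.1 (adjusted p = 0.112 and 0.0569), with quantile normalization (0.0783 and 0.0521), without the term for treatment (0.449 and 0.190), without the filter (0.213 for each) or without any 1 library (0.169 to 0.9997 and 0.175 to 0.523). In those fits with 1 library left out, which have no term for treatment, the difference of PLAU was 0.92 without the BM1 knockdown library. The differences of SERPINE2 stayed between 1.59 and 1.94 without any 1 library.

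The other 7 members did not pass the test between lines. F3 lay at nearly the same level in both lines, with an average difference of 0.03 ± 0.26 (limma adjusted p = 0.958), and SERPINB8 at -0.15 ± 0.25 (adjusted p = 0.774). PLAUR differed by 0.34 ± 0.26 (adjusted p = 0.476) and PLAT by -0.31 ± 0.27 (adjusted p = 0.551). TFPI2 was on average higher in LM2 by 0.59 ± 0.30 (adjusted p = 0.287), with nearly equal controls and a 2.29-fold higher LM2 level among the knockdowns. SERPINB2 and SERPINB6 were on average lower in LM2, with differences of -0.56 ± 0.27 (adjusted p = 0.255) and -0.58 ± 0.30 (adjusted p = 0.299). By the 2-fold rule 2 members, PLAU and SERPINE2, differed between the controls, where 12.2% of all tested genes did (6.98% higher, 5.26% lower). Among the knockdowns 4 members did, PLAU, SERPINE2 and TFPI2 as higher and SERPINB6 as lower in LM2, where 9.04% of all tested genes did (4.41% higher, 4.63% lower). SERPINB2, at -0.83 with the pseudocount of 1, made 5 members with a pseudocount of 0.5 (-1.04) or 0.1 (-1.30).

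**Figure D4:**
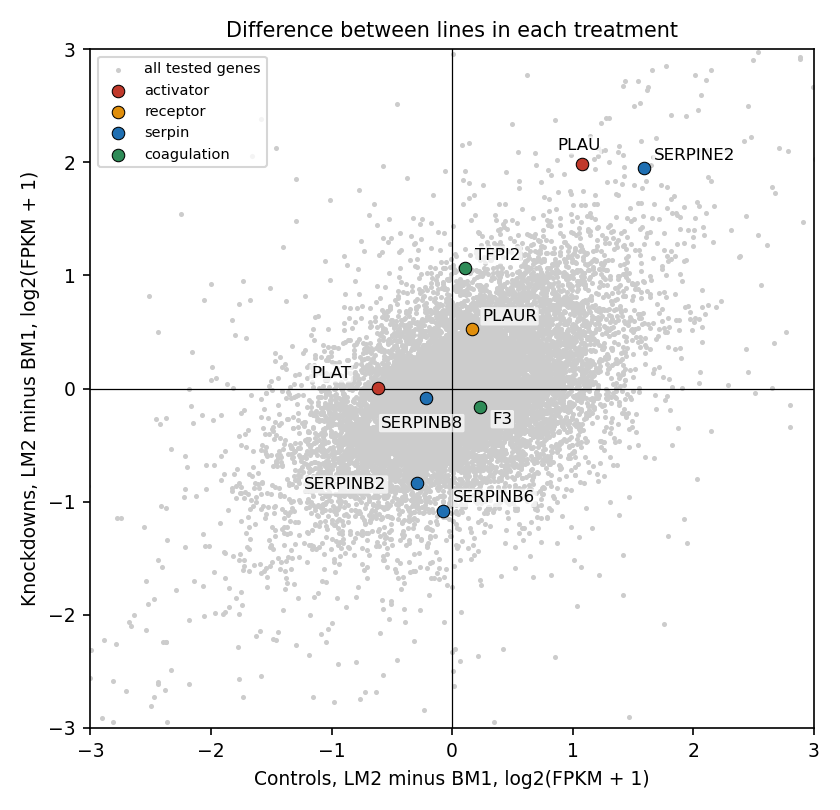
Difference between lines, LM2 minus BM1 on log2(FPKM + 1), for controls on the horizontal and knockdowns on the vertical axis, with all tested genes in grey and the 9 genes coloured by role; 83 genes lie outside the axes. PLAU and SERPINE2 lie above 1 on both axes, and TFPI2 and SERPINB6 lie near 0 for the controls and at 1.07 and -1.08 for the knockdowns.

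Other members of the serpin family were examined with the same fit. Of 12 such genes, pseudogenes included, 6 passed the filter. With the knockdown 0 of these 6 were called by limma, and the largest average changes were in SERPINI1, the inhibitor neuroserpin (0.91 ± 0.32, adjusted p = 0.123), and SERPINH1, a collagen chaperone (0.83 ± 0.26, adjusted p = 0.0994). Between the lines 1 of the 6 was called, against 4.35% of all tested genes. SERPINA1, the antitrypsin gene, was low, at 0.279 and 0.446 FPKM in BM1 and 3.07 and 2.21 FPKM in LM2. It was higher in LM2 by 1.41 ± 0.27 (limma adjusted p = 0.0242). Both BM1 values lay below the filter's 1 FPKM, and SERPINA1 passed the filter only through LM2. Its entry among the tested genes thus rested on the same difference that was called, and no more is read from this call. The medians over the 6 genes were 0.11 with the knockdown and 0.26 between the lines.

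Among serpins with an entry, SERPINB2, SERPINB8 and SERPINB5 lie within 529 kilobases on chromosome 18. SERPINB6, SERPINB1, SERPINB9 and the pseudogene SERPINB9P1 lie within 140 kilobases on chromosome 6. Serpins without an entry were not placed, so these genes need not be direct neighbours. SERPINB5, at 0.0158 to 1.34 FPKM, was higher in LM2, but it did not pass the filter and was not tested. SERPINB8 varied little and SERPINB2 was on average lower in LM2. On chromosome 6 SERPINB9 was higher in LM2 (10.4 and 13.9 FPKM, against 5.34 and 5.50 in BM1) without passing the test (limma adjusted p = 0.0630). SERPINB1 and SERPINB6 were on average lower there, also without passing it (limma adjusted p = 0.298 and 0.299).

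Partners of the 2 pathways came from a list of 38 genes, of which 26 have an entry and 21 passed the filter. The list was written from general knowledge, with earlier results of these data known. With the knockdown 4 of the 21 were called by limma, against 5.47% of all tested genes, ITGAV as higher and MMP1, MMP14 and PROCR as lower. MMP1, an interstitial collagenase whose precursor plasmin can cleave, went from 355 to 11.9 FPKM in BM1, and for LM2 from 33.3 to 2.34, an average change of -4.08 ± 0.35 (limma adjusted p = 0.00285), which ranged from -5.76 without the LM2 control to -2.39 without the BM1 control in unpaired fits that each left out 1 library. MMP14, a membrane-bound metalloproteinase, went from 105 to 23.4 FPKM in BM1, and for LM2 from 92.7 to 19.5, an average change of -2.15 ± 0.25 (limma adjusted p = 0.00652). ITGAV, a subunit of vitronectin receptors that associate with PLAUR, went from 3.85 to 20.0 FPKM in BM1, and for LM2 from 15.2 to 30.9, an average change of 1.55 ± 0.32 (limma adjusted p = 0.0313), which in such fits was 0.68 with the BM1 control left out and 2.42 with the LM2 control left out. PROCR, the endothelial protein C receptor, went from 27.0 to 9.15 FPKM in BM1, and for LM2 from 8.04 to 3.42, an average change of -1.25 ± 0.26 (limma adjusted p = 0.0334), which was -0.43, -0.65 and -2.06 when the BM1 control, the LM2 knockdown or the LM2 control library was left out. Unpaired fits mix line and treatment. Within BM1 and LM2 the changes were -4.79 and -3.36 for MMP1, 2.12 and 0.98 for ITGAV and -1.47 and -1.03 for PROCR. ITGAV and PROCR overlap genes on the opposite strand. The median over the 21 genes was -0.09.

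Between the lines 3 of the 21 partners were called by limma, against 4.35% of all tested genes. MMP1 (-2.66 ± 0.35, adjusted p = 0.00527) and PROCR (-1.42 ± 0.26, adjusted p = 0.0223) were lower in LM2, and MRC2, an endocytic collagen receptor that binds the urokinase receptor complex, was higher (1.34 ± 0.25, adjusted p = 0.0245). In the unpaired fits the difference of MMP1 was -0.26 and -0.98 when the BM1 control or the LM2 knockdown was left out. It was -5.06 and -4.34 without the BM1 knockdown and LM2 control. That of PROCR was -0.68 and -0.90 without the BM1 control and LM2 knockdown, and -2.15 and -1.93 without the BM1 knockdown and LM2 control. These fits have no term for treatment, so their estimates also hold part of the knockdown change. Between libraries of the same treatment MMP1 differed by -3.38 in the controls and -1.94 in the knockdowns, and PROCR by -1.63 and -1.20. The level of MRC2 was 5.83 FPKM without and 4.06 with the knockdown in BM1, and 17.6 and 10.9 in LM2, and it overlaps genes on the opposite strand. The median over the 21 genes was 0.09. PLG, the gene of plasminogen itself, has no entry among the genes analysed. The calls of the named serpins and partners, like those of the members, did not hold with quantile normalization, without the filter or without any 1 library. Nor did they hold without the other term of the fit, line for the knockdown and treatment for the lines. Those of ITGAV and PROCR with the knockdown were also lost after correction for GC content and transcript length (limma adjusted p = 0.0571 and 0.0550).

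**Figure D5:**
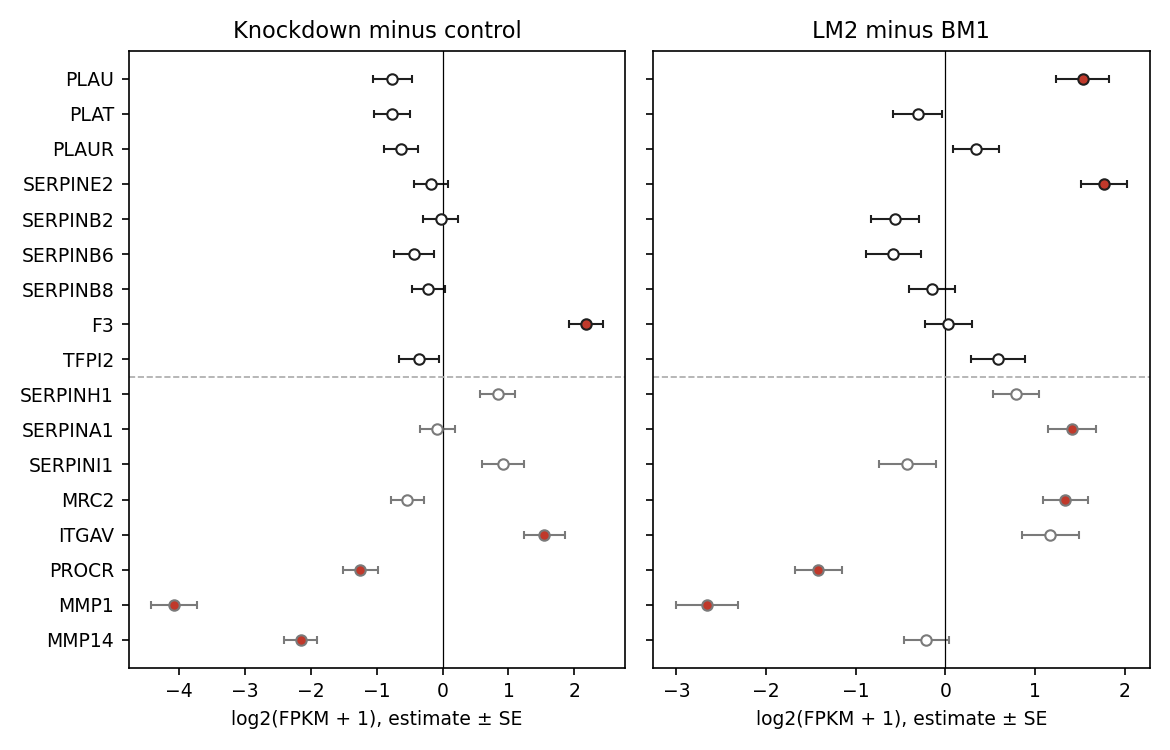
Average change with the knockdown (left) and average difference between lines (right) from limma on log2(FPKM + 1), with bars of 1 standard error, for the 9 genes above the dashed line and the named other serpins and partners below it. Filled points are below an adjusted p of 0.05: F3 on the left and PLAU and SERPINE2 on the right among the 9 genes.

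The genes whose profile over the 4 libraries was nearest to a member were looked up for the 3 members with the widest range, F3, PLAU and SERPINE2. Likeness was the root-mean-square distance between profiles on log2(FPKM + 1), each centred on its own mean, over 13927 other genes. NEAT1, a nuclear long noncoding RNA, was nearest to F3 (distance 0.06), from 4.23 to 28.8 FPKM with the knockdown in BM1, and for LM2 from 5.81 to 24.2, and KIAA0895 was next (0.08), although it overlaps ANLN on the opposite strand. NT5E, which encodes the ectoenzyme CD73, was nearest to PLAU (0.10), from 123 to 52.4 FPKM in BM1, and for LM2 from 262 to 178, and IDH2, a mitochondrial dehydrogenase, was next (0.11). MSX2, a homeobox gene, was nearest to SERPINE2 (0.03), from 1.16 to 0.626 FPKM in BM1, and for LM2 from 5.47 to 5.17. RP11-324O2.3, which overlaps ACSL5 and ZDHHC6, was next (0.05), from 0.465 to 0.136 FPKM in BM1, and for LM2 from 3.66 to 3.71. It passed the filter only through LM2. Both genes are low in BM1, where the added 1 shrinks differences. Their fold differences between lines are therefore larger than that of SERPINE2 despite the small distances. A profile here has only 4 points. Between the members themselves the nearest pair was SERPINB2 and SERPINB6, at a distance of 0.23.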

How the data were processed

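The authors deposited 1 table of FPKM values with 1 column per library. STAR 2.5.3a, Cuffdiff 2.2.1 and the build GRCh37 are listed in the submitters' processing notes, and the sources used here give neither annotation nor strand setting. Per the labels' protocols the polyadenylated RNA libraries were stranded and paired-end. The table lists 20369 entries, and 40 with repeated gene IDs were left out. Depth was inferred from the step of FPKM times transcript length in 1623 low genes with 1 GENCODE 29 transcript, of which 35.9% to 43.3% fell within 0.02 steps of a whole number (counting those of at most 10 steps). That placed the libraries at 31.3 and 22.8 (BM1 control and knockdown) and 41.5 and 27.3 (LM2) in mega-fragments. Most values were not whole, so no count test was run. Depth covers counting error only. Standard errors and p-values rest on 1 residual degree of freedom per gene, which is how far its knockdown change differs between the lines. To this limma adds a spread pooled over all tested genes, with 7.70 prior degrees of freedom. They hold no spread between replicates and describe these 4 libraries only.

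Values were tested as log2(FPKM + 1) with limma 3.58.1 in R 4.3.3 (terms for line and treatment, two-sided, tested on simulated data). The line pairs each knockdown with its control, since both come from 1 cell line (r = 0.545 between deviations across genes). An interaction cannot be tested with 4 libraries, and exact permutation of 4 libraries cannot reach the threshold. Alternatives were other pseudocounts (0.1, 0.5), no filter, size factors, quantile normalization, no pairing, an intensity trend, a correction for GC content and transcript length, a 1.5-fold rule, and leaving out each library. The text names the members, HNRNPM, called genes of the fixed lists (otherwise the 2 largest changes), and the 2 genes nearest to the 3 members of widest range. The members and lists were chosen with earlier results of these data known. A serpin gene and a cell type marker are not reported here and were left out of the counts of their lists.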

Additional observations from a re-analysis of the deposited data

Results flagged for a closer look

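In 4 of the 9 genes the difference between knockdown and control had opposite signs in BM1 and LM2, with 1 library per arm, and how far the lines differ was not tested. SERPINB6 differed by 0.07 in BM1 and -0.93 in LM2 on log2(FPKM + 1), a difference (LM2 minus BM1) of -1.0004. TFPI2 differed by -0.84 and 0.12, a difference of 0.96. SERPINB2, the lowest gene of the set, differed by 0.24 and -0.30, a difference of -0.54. SERPINE2 differed by -0.35 and 0.01, a difference of 0.36, and its LM2 value was -0.012 with quantile normalization, so that the sign was then the same in both lines.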

How the results depend on the processing

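With the knockdown limma called 762 genes, and 613 to 888 with a pseudocount of 0.5, size factors or an intensity trend. It called 27 with a pseudocount of 0.1, 427 after correction for GC content and length, and 0 with no filter (3735 at an unadjusted p under 0.05), with quantile normalization (3255), without the replicate block that pairs libraries by line (1548) and without any 1 library (860 to 1943). Of the members 0 were called under a pseudocount of 0.1, no filter, quantile normalization, no replicate block and each left-out library, where F3 had been the 1. Between the lines 606 genes were called, and 484 to 716 with those same mild changes or the correction. There were 216 with a pseudocount of 0.1, 104 with quantile normalization (44 higher and 60 lower, against 322 and 284), 11 without the block (1333 unadjusted), 6 to 28 without any 1 library and 0 with no filter (3634 unadjusted). Of the members 0 were called in those 5 settings, against 2. All 12 named calls, that of HNRNPM included, were lost with no filter, quantile normalization, no block or a left-out library, and 9 with a pseudocount of 0.1. For the difference between lines the block removed was the term for treatment. The block cannot be kept with 3 libraries, so those fits mix line and treatment.

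In the limma fits of the members directions turned only when 1 library was left out. The knockdown change then ranged from -1.75 to 0.23 for PLAU, -1.15 to 0.80 for SERPINE2, -0.44 to 0.39 for SERPINB2, -0.97 to 0.11 for SERPINB6 and -0.89 to 0.17 for TFPI2. The difference between lines ranged from -0.84 to 0.23 for PLAT, -0.065 to 0.75 for PLAUR and -1.15 to 1.22 for F3. With 1 library left out the block is lost, so these ranges also hold part of the effect of the other term. Between libraries of the same treatment F3 differed by 0.23 in the controls and -0.16 in the knockdowns. Within the lines PLAU changed by -1.21 in BM1 and -0.31 in LM2. A 1.5-fold rule counted 5262 genes and 5 members in BM1, 3418 and 2 in LM2, 4738 between controls and 3865 between knockdowns. A pseudocount of 0.1 with the 2-fold rule counted 1824 in LM2, 2636 between controls and 2013 between knockdowns. The cause of the other shifts was not tested beyond the construction of each setting. Depth limits SERPINB2 most.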

Other observations

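Ratios between genes were read from FPKM, a scale per length, and were chosen after the values were seen. With 1 library per group they have no error. The summed level of the activators PLAU and PLAT was 230.0 FPKM without and 103 with the knockdown in BM1, and 308 without and 242 with it in LM2.

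PLAU exceeded PLAUR in every library, by 1.76-fold and 1.34-fold in the BM1 control and knockdown and by 3.34-fold and 3.70-fold in LM2. F3 exceeded the sum of its inhibitor TFPI and of TFPI2 by 2.97-fold in the BM1 control and 2.81-fold in the LM2 control, and by 11.2-fold and 9.31-fold in the knockdowns. TFPI itself went from 14.2 to 29.1 FPKM in BM1, and for LM2 from 19.3 to 24.3, and its change did not pass the test (limma adjusted p = 0.18).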
